A study of Mus musculus with 15 samples.

Results

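Of the 30884 gene symbols on the arrays, 37 genes of the cell cycle were followed, 26 that act in mitosis (cyclins, kinases, kinetochore, spindle and cytokinesis genes) and 11 that act in DNA replication (the MCM helicase, nucleotide supply, the sliding clamp and cohesion). They were taken by gene symbol from a list of known roles, and each had 1 transcript cluster, the set of probes that reads a gene. RNA of adult microglia was hybridised to 15 Affymetrix Mouse Gene 2.0 ST arrays, 1 per mouse, and the values are log2 signals after RMA, so that a difference of 1 is a doubling. The paper's text speaks of RNAseq here, while its methods and the deposited values are those of arrays. The 6 Cre/+ TAM mice carried 1 Cx3cr1 allele with the tamoxifen-dependent recombinase CreERT2 and received tamoxifen, 8 mg at each of 2 time points 48 h apart, at 6 to 8 weeks of age, which deletes Tgfbr2. The 6 wt TAM mice, littermate controls as were the Cre/+ OIL mice, lacked Cre and received the same tamoxifen, and the 3 Cre/+ OIL mice carried Cre and received oil. All mice were C57BL/6 males with floxed Tgfbr2 alleles and an R26-yfp reporter, and cells were taken 4 weeks after the injections. The Cx3cr1 promoter drives Cre in other macrophages that express Cx3cr1 as well as in microglia. The labels give a CD11b+/CD45low sort for every group, whereas the paper gives YFP+/CD45low for Cre/+ TAM, CD11b+/CD45low for wt TAM and no gate for Cre/+ OIL.

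Before a cell divides it copies its DNA and then separates the copies. E2F factors switch on genes of replication, and later the MuvB complexes with B-Myb and FoxM1 switch on genes of mitosis through a promoter element known as the cell cycle genes homology region (CHR). TGF-beta, which signals through Tgfbr2, restrains division in many cell types, and adult microglia renew slowly by local division.

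The 2 sets of genes also differ in their promoters. RefSeq (GRCm38.p6) gave a promoter, 250 bases before to 50 after the annotated start, for 31 of the 37 genes. A CHR (TTTGAA or TTTAAA, on either strand, where TTTGAA reads TTCAAA on the other) lay in 19 of 22 mitotic genes (86.4%), 3 of 9 replication genes (33.3%) and 27.6% of all 32851 promoters. A CCAAT box (CCAAT, or ATTGG on the other strand) lay in 17 mitotic genes (77.3%), 8 replication genes (88.9%) and 37.4% of all promoters. An E2F site (TTTCCCGC or TTTGGCGC, on the other strand GCGGGAAA or GCGCCAAA) lay in 0 of 22 mitotic genes, 4 of 9 replication genes (44.4%) and 1.56% of all promoters. Matches of different motifs may overlap, and in Kntc1 a CCAAT box and a CHR share 1 base. A match describes letters and not binding. The 150 bases before the start are shown for 4 mitotic genes whose signals are described below, with CHR and CCAAT letters in capitals. Top2a and Cdk1 had large differences between groups and Ube2c had 1 outlying mouse. Kntc1 was higher in every Cre/+ TAM mouse than in any other mouse.
Top2a (chr11:99024190-99024339, minus strand): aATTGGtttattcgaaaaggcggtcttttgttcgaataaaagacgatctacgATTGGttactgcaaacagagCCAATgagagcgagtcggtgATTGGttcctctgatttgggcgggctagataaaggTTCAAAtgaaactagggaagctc
Cdk1 (chr10:69352913-69353062, minus strand): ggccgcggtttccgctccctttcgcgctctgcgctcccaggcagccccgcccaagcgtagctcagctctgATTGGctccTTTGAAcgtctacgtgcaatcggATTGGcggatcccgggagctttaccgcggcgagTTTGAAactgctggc
Ube2c (chr2:164769779-164769928, plus strand): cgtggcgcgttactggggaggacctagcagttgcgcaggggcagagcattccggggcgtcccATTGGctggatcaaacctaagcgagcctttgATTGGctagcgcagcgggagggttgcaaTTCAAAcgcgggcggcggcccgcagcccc
Kntc1 (chr5:123749576-123749725, plus strand): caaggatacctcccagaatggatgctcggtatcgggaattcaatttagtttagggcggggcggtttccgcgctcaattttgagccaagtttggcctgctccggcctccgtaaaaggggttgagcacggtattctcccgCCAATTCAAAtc
For contrast, the same stretch is shown for 2 subunits of the MCM helicase, with CCAAT and E2F letters in capitals. Neither stretch holds a CHR, but Mcm5 has one further upstream, at -221, and is 1 of the 3 replication genes counted above.
Mcm5 (chr8:75109359-75109508, plus strand): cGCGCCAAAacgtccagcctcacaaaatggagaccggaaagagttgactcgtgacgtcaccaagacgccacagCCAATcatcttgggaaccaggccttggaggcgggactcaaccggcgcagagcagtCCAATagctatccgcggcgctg
Mcm6 (chr1:128359706-128359855, minus strand): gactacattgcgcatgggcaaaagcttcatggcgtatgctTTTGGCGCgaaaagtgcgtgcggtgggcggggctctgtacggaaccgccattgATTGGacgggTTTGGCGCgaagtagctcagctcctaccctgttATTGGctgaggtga

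The Cre/+ TAM mice P098_07_1504_529 and P098_09_1504_538 stood apart from the other 13 mice in many of these genes, and values without the pair are given for the groups of genes and for the genes with the largest differences. The arrays correlated at 0.960 to 0.988 with each other across clusters, and their median signals were 4.35 to 4.55. The 8 microglia markers (Csf1r, Cx3cr1, Fcrls, Olfml3, P2ry12, Sall1, Siglech and Tmem119) averaged 9.80 to 10.30 in Cre/+ TAM, 9.92 to 10.39 in wt TAM and 10.05 to 10.36 in Cre/+ OIL. The lowest of the 15 mice was P098_07_1504_529 (9.80), and P098_09_1504_538 had 10.19. Of 11 lists of cell type markers, those of border-associated macrophages (the macrophages of meninges and perivascular spaces), neutrophils and erythroid cells had the widest ranges between mice. Erythroid markers averaged 3.97 to 4.47 in Cre/+ TAM, 4.01 to 4.99 in wt TAM and 4.15 to 4.47 in Cre/+ OIL. Many of the 37 genes gave weak signals, and 15 of them (7 of 26 mitotic and 8 of 11 replication genes) averaged above the median cluster of the array (4.40). The titles of 3 arrays carry neg, which no source used here explains, and these were the lowest 3 of the 15 for 2 of the 37 genes, Mki67 and Pcna. The animal numbers in the titles fall into 2 ranges, up to that of P098_10_1504_539 (8 mice) and from that of P098_13_1504_576 (7 mice), called here the lower and the upper number range. Both hold Cre/+ TAM and wt TAM mice, while all Cre/+ OIL mice lie in the lower one.

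Tgfbr2-deleted microglia were first compared with microglia of Cre-free mice on tamoxifen. The mitotic genes lay higher in Cre/+ TAM, by a median of 0.43 over the 26 genes, and 25 of 26 differences were positive. The 11 replication genes had a median difference of 0.11 and 9 positive ones. Over all 32471 clusters tested, the median difference was -0.02 and 44.8% were positive. No gene passed the test across all clusters (0 of 37 at a limma adjusted p under 0.05, two-sided, Benjamini-Hochberg), a call that 0.0246% of all clusters received (0.0216% as higher). At an unadjusted p under 0.05, 16 of 37 were higher (14 of 26 mitotic and 2 of 11 replication genes, Mcm5 and Esco2) and 0 were lower, against 2.92% of all clusters higher and 2.91% lower. The methods' unpaired test also called 0 of 37 after adjustment, and 14 were higher at an unadjusted p under 0.05, as were 2.79% of all clusters by that test. In limma fits with number range as a block or with both control groups together, 1 of the 37, the kinetochore gene Kntc1, was called (adjusted p = 0.0475 and adjusted p = 0.0236), as were 0.157% and 0.0924% of all clusters. None reached a 2-fold difference with an unadjusted p under 0.05 (0.203% of all clusters did). In bulk RNA of sorted cells, more dividing cells and more of these transcripts per cell cannot be told apart.

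**Figure D1:**
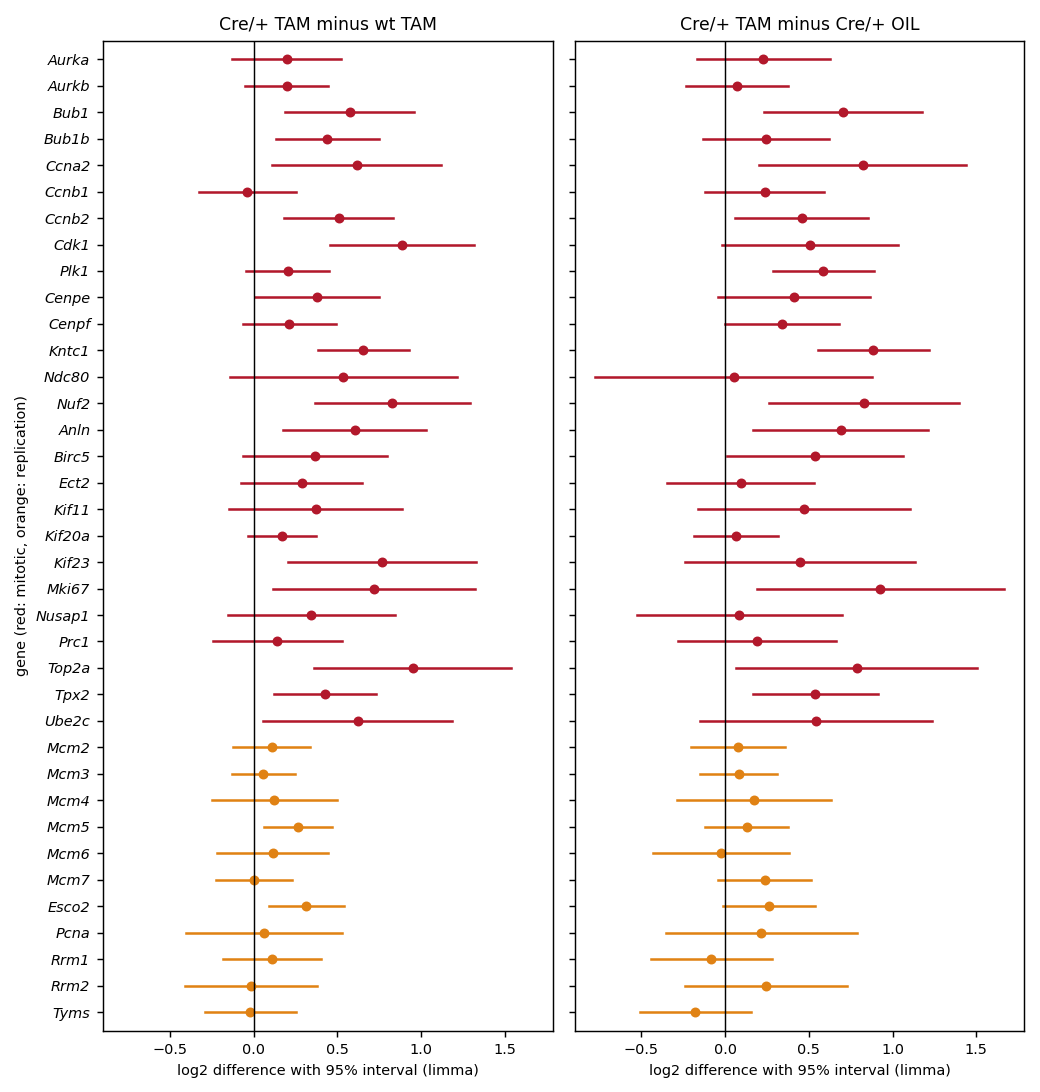
Log2 difference of each of the 37 genes, Cre/+ TAM minus wt TAM (left) and Cre/+ TAM minus Cre/+ OIL (right), with its 95% interval from limma over all 15 arrays; red, mitotic genes, orange, replication genes. In the left panel 25 of 26 mitotic differences lie above 0, up to 0.95 in Top2a, and those of the replication genes lie between -0.02 and 0.31.

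Among the cyclins and mitotic kinases, Cdk1, the kinase that drives entry into mitosis, showed the largest difference. Its log2 signal had a lowest, median and highest value of 4.45, 4.86 and 5.34 in Cre/+ TAM, 3.20, 4.12 and 4.43 in wt TAM and 4.17, 4.46 and 4.53 in Cre/+ OIL. All 6 Cre/+ TAM mice lay above all 6 wt TAM mice, although not above all Cre/+ OIL mice. The difference to wt TAM was 0.89 (standard error 0.20, limma adjusted p = 0.197). Cyclin A2 (Ccna2), a partner of Cdk1 and Cdk2, reached 5.37 in P098_07_1504_529 and 5.96 in P098_09_1504_538, both Cre/+ TAM, and lay at 4.30 to 4.88 in the 4 remaining mice of that group, against 4.02 to 4.42 in wt TAM and 3.69 to 4.67 in Cre/+ OIL. Cyclin B2 (Ccnb2) had a difference of 0.51 (standard error 0.15), whereas cyclin B1 (Ccnb1), the main mitotic partner of Cdk1, had one of -0.04 (standard error 0.14, 95% interval -0.33 to 0.25). Ccnb1 signals were low in every group, at 3.25 to 4.05 in Cre/+ TAM, 3.30 to 3.85 in wt TAM and 3.08 to 3.48 in Cre/+ OIL. Bub1 and Bub1b, kinases of the spindle checkpoint, had differences of 0.57 and 0.44. The Aurora kinases Aurka and Aurkb and the polo-like kinase Plk1 each had one of 0.20 and an unadjusted p above 0.05 against wt TAM.

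The 5 kinetochore genes had a median difference of 0.54, and of 0.11 without P098_07_1504_529 and P098_09_1504_538. Nuf2, a subunit of the Ndc80 complex that holds microtubules, had lowest, median and highest signals of 3.91, 4.25 and 5.44 in Cre/+ TAM and 3.25, 3.73 and 3.87 in wt TAM. The Cre/+ OIL mice had 3.41, 3.64 and 3.78, and every Cre/+ TAM mouse lay above every mouse of both other groups. Its difference was 0.83 (standard error 0.22, limma adjusted p = 0.35). Its partner Ndc80 spread over 2.16 to 4.03 within wt TAM and had a difference of 0.54 (standard error 0.32). The motor Cenpe and the kinetochore protein Cenpf had differences of 0.38 and 0.21, which were 0.08 and 0.0093 without the pair. Kntc1 encodes a part of the complex that brings dynein to the kinetochore. In Kntc1 the pair did not stand apart from the other 4 Cre/+ TAM mice, with P098_07_1504_529 the highest and P098_09_1504_538 the lowest of the 6. Its signals in the 6 Cre/+ TAM mice were 5.21, 4.52, 4.69, 4.83, 5.13 and 4.64. In wt TAM they were 4.32, 4.27, 4.33, 4.15, 3.83 and 4.18, and in Cre/+ OIL 4.15, 3.90 and 3.80. The groups did not overlap, and the spread among the Cre/+ TAM mice (SD 0.28) was smaller than the difference to wt TAM of 0.65 (standard error 0.13, unadjusted p = 9.01e-05, limma adjusted p = 0.12). Across all clusters 0.317% separated in this way, and among the 37 genes 4 did (Cdk1, Nuf2, Ube2c and Kntc1).

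Among the 12 genes of the spindle, chromosomes and cytokinesis, Top2a had the largest difference of all 37. Top2a is the topoisomerase that untangles sister chromosomes. Its signals were 5.31, 5.63, 3.94, 3.86, 3.96 and 4.12 in Cre/+ TAM, against 3.51, 3.86, 2.96, 3.65, 3.25 and 3.90 in wt TAM and 3.76, 3.52 and 3.78 in Cre/+ OIL. The first 2 Cre/+ TAM mice stood far above all others and the other 4 near the top of the wt TAM range. The difference was 0.95 (standard error 0.28, limma adjusted p = 0.484). Mki67, the gene of the proliferation marker Ki-67, had signals of 6.31 in P098_07_1504_529, 6.93 in P098_09_1504_538 and 4.80 to 5.26 in the other 4 Cre/+ TAM mice. It had 4.60 to 5.06 in wt TAM and 4.43, 4.46 and 5.05 in Cre/+ OIL, so that the groups overlapped outside that pair. Its difference was 0.72 (standard error 0.29, limma adjusted p = 0.753). Kif23, a motor of the central spindle, and Anln (anillin), a scaffold of the cleavage furrow, had differences of 0.77 and 0.61, which were 0.32 and 0.26 without the pair. Ube2c, which passes ubiquitin to the anaphase-promoting complex, reached 6.00 in P098_09_1504_538 and 3.93 to 4.08 in the other 5 Cre/+ TAM mice, against 3.49 to 3.89 in wt TAM. The remaining 7 genes (Tpx2, Kif11, Birc5, Nusap1, Ect2, Kif20a and Prc1) had differences of 0.14 to 0.43.

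Most replication genes had similar signals in Cre/+ TAM and wt TAM. Mcm2 to Mcm7 encode the helicase that opens DNA for replication, and their differences were 0.00 to 0.27. Mcm5 had lowest, median and highest signals of 4.17, 4.49 and 4.56 in Cre/+ TAM, 3.93, 4.18 and 4.28 in wt TAM and 4.22, 4.25 and 4.39 in Cre/+ OIL (difference to wt TAM 0.27, standard error 0.10, limma adjusted p = 0.665). Mcm2 differed by 0.11 (standard error 0.11) and Mcm4 by 0.12 (standard error 0.18). Esco2, which acetylates cohesin during replication, had the largest replication difference, 0.31 (standard error 0.11, limma adjusted p = 0.622), at low signals of 2.81 to 3.34 in Cre/+ TAM and 2.60 to 2.92 in wt TAM. Both subunits of ribonucleotide reductase, which makes deoxynucleotides, were near 0 (Rrm1 0.11, Rrm2 -0.01), as was thymidylate synthase (Tyms, -0.02). The clamp gene Pcna had signals of 9.06 to 9.94 in Cre/+ TAM, 8.95 to 9.92 in wt TAM and 8.86, 8.93 and 10.21 in Cre/+ OIL. Its difference was 0.06 with a 95% interval of -0.40 to 0.53. The highest of these, in the Cre/+ OIL mouse P098_08_1504_530, came from an array whose 12 neutrophil markers averaged 5.80, against 3.66 to 3.78 in Cre/+ TAM and 3.65 to 5.33 in wt TAM, and their part in the Pcna value was not tested.

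**Figure D2:**
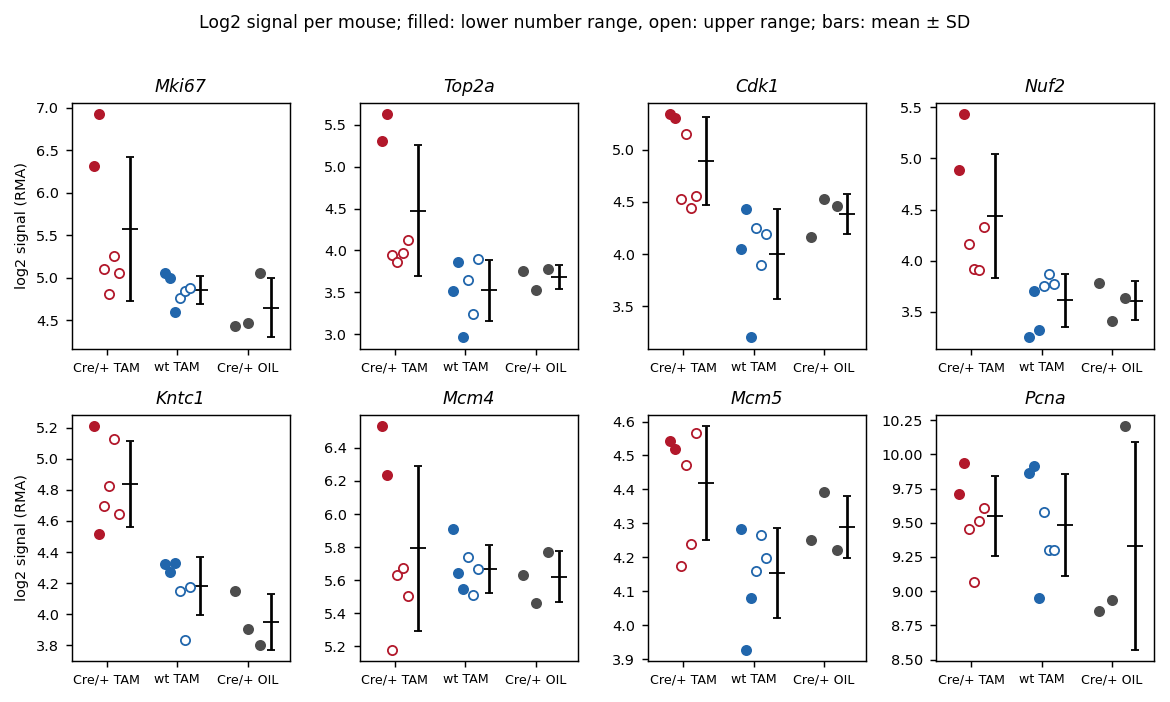
Log2 signal (RMA) of 8 of the genes in each mouse, by group; filled points are mice of the lower number range, open points those of the upper range, and bars give mean and SD. In Mki67, Top2a and Nuf2 the 2 filled Cre/+ TAM points stand above every other mouse, in Kntc1 all 6 Cre/+ TAM mice do, and in Pcna the groups overlap.

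The high values within Cre/+ TAM came mostly from the same mice. P098_09_1504_538 had the highest signal of all 15 mice in 21 of the 37 genes (20 mitotic), and P098_07_1504_529 in 10 (5 mitotic and 5 replication). One of the pair was the highest of 15 in 25 of 26 mitotic and 6 of 11 replication genes, as in 12.0% of all clusters. Both lay above all 13 other mice in 18 mitotic genes and 3 replication genes (Mcm2, Mcm4 and Mcm6), as in 2.08% of all clusters. Averaged over the 26 mitotic genes, the signal was 4.79 in P098_07_1504_529 and 5.14 in P098_09_1504_538, and 4.10 to 4.20 in the other 4 Cre/+ TAM mice. The wt TAM mice lay at 3.91 to 4.08 and the Cre/+ OIL mice at 3.88 to 4.09. The mean of the 11 replication genes was 5.66 and 5.48 in the pair and 5.17 to 5.30 in the other 4, against 5.17 to 5.30 in wt TAM and 5.10 to 5.31 in Cre/+ OIL. The pair differed from each other too, with the mitotic mean higher in P098_09_1504_538 and the replication mean higher in P098_07_1504_529. Mcm4, for example, had a signal of 6.53 in P098_07_1504_529, 6.24 in P098_09_1504_538, 5.18 to 5.68 in the other 4 and 5.51 to 5.91 in wt TAM.

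**Figure D3:**
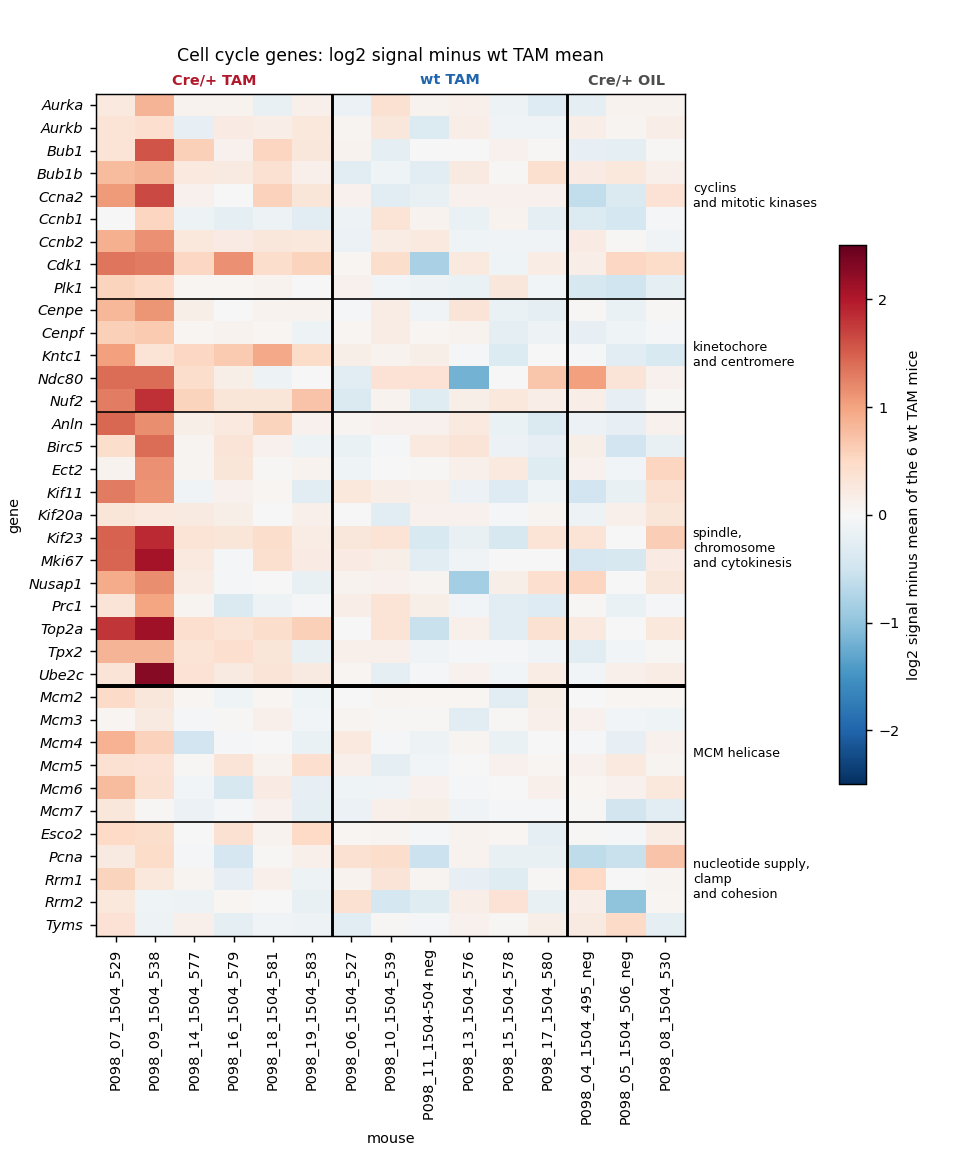
Log2 signal of each of the 37 genes (rows, by role) in each of the 15 mice (columns, by group) minus the gene's mean over the 6 wt TAM mice; red is above and blue below that mean, and the thick line parts mitotic from replication genes. The first 2 columns, P098_07_1504_529 and P098_09_1504_538, are red over most mitotic rows, and the row of Kntc1 is red in all 6 Cre/+ TAM columns.

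Markers of border-associated macrophages moved with the same mice. Their 12 markers averaged 7.23 in P098_07_1504_529, 5.75 in P098_09_1504_538 and 4.95 to 5.11 in the other 4 Cre/+ TAM mice, against 4.45 to 4.63 in wt TAM and 4.29 to 4.54 in Cre/+ OIL. Against wt TAM, 11 of 12 had positive differences and 0 were called. The list holds Mrc1, Pf4 and Ms4a7, which the paper reports as increased in Tgfbr2-deficient microglia. Whether the marker signals came from border-associated macrophages or from microglia was not tested. Within the pair the mitotic mean ran the other way and the replication mean the same way as these markers. The part of such macrophages in the cell cycle values was not tested either. The study's protocol removed the meninges before the sort and names no step that removes perivascular macrophages. Whether macrophages of either place remained was not tested. The neutrophil markers averaged 3.76 and 3.78 in the pair.

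**Figure D4:**
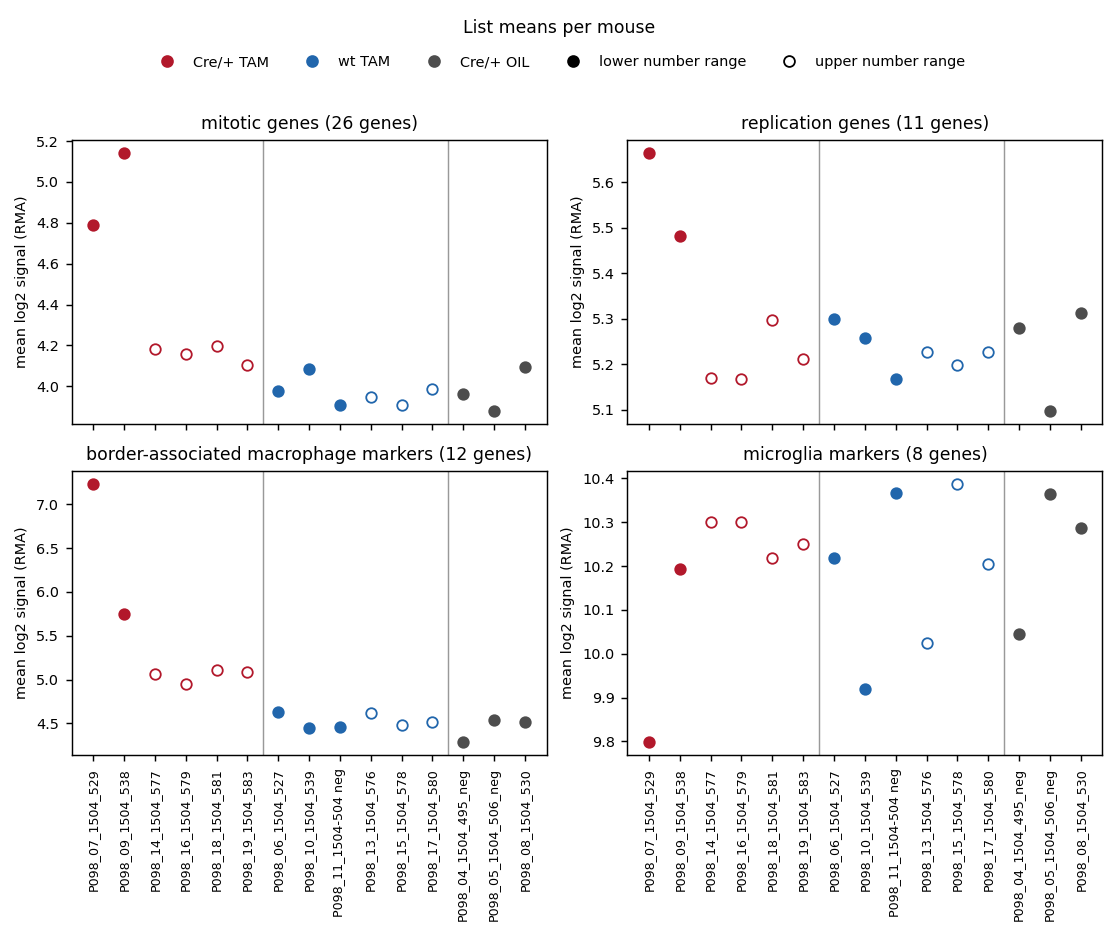
Mean log2 signal (RMA) per mouse over the 26 mitotic genes, the 11 replication genes, 12 border-associated macrophage markers and 8 microglia markers, in separate panels with their own axes; colours give the group, filled and open points the lower and upper number range. The mitotic mean is highest in P098_09_1504_538 (5.14) and the macrophage mean in P098_07_1504_529 (7.23). Microglia markers lie within 9.80 to 10.39 and are lowest in P098_07_1504_529.

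Without this pair, which earlier results of these data had set apart, the differences shrank. The median difference of the mitotic genes between the other 4 Cre/+ TAM mice and wt TAM was 0.16, with 22 of 26 positive, and that of the replication genes was -0.06, with 3 of 11 positive (all clusters, -0.01 and 47.9%). By role, the median was 0.24 for cyclins and mitotic kinases, 0.11 for kinetochore genes, 0.16 for genes of spindle, chromosomes and cytokinesis, -0.05 for the MCM genes and -0.06 for the other replication genes. Called were 0 of 37 (limma), as were 0.0493% of all clusters. At an unadjusted p under 0.05, 7 mitotic genes were higher (Kntc1, Cdk1, Nuf2, Bub1, Top2a, Ube2c and Ccnb2), against 2.23% of all clusters, and 0 genes were lower (2.33%). Kntc1 had a difference of 0.64 (standard error 0.13), close to that with all mice, and Cdk1 one of 0.67 (standard error 0.21). Mki67 was at 0.20, Top2a at 0.45 and Nuf2 at 0.47. Mcm4 changed sign, with -0.17.

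Since both mice of the pair belong to the lower number range, the comparison was repeated within each range in 1 fit. The Cre/+ TAM mice of the lower range are that pair and no others, so its values restate the signals that had set the pair apart and are no independent support. In the lower range (2 Cre/+ TAM and 3 wt TAM mice), 12 of 37 genes rose at a limma adjusted p under 0.05, all of them mitotic, where 0.662% of all clusters did. Top2a rose by 2.02, Nuf2 by 1.74, Mki67 by 1.74, Bub1b by 1.04 and Kif23 by 1.59, and the others were Ccna2, Ccnb2, Cdk1, Kif11, Cenpe, Tpx2 and Anln. At an unadjusted p under 0.05, 27 were higher (22 mitotic and 5 replication genes, against 4.05% of all clusters) and 0 lower (3.81%). In the upper range (4 Cre/+ TAM and 3 wt TAM mice), 0 of 37 passed, as against 0.00308% of all clusters higher, and 4 were higher at an unadjusted p under 0.05 (Ccnb2, Cdk1, Anln and Kntc1, against 1.82% of all clusters) and 0 were lower (2.79%). The median mitotic difference was 0.95 in the lower and 0.13 in the upper range, with 26 and 25 of 26 positive (45.8% and 47.2% of all clusters). The replication median was 0.25 in the lower range, with 11 of 11 positive, and -0.00 in the upper range, with 5 of 11 positive. Leaving out 1 of the 3 wt TAM mice of the lower range contrast gave 8 to 10 called genes, with 8 each without P098_06_1504_527 or P098_11_1504-504 neg. These fits called 186 to 202 of all 32471 clusters. Without 1 of the pair, the Cre/+ TAM arm is a single mouse that is assumed to vary like the other groups, so that no count is given. A fit of the arrays of the lower range alone called 5 genes (Mki67, Top2a, Bub1b, Nuf2 and Anln), and 0.268% of all clusters.

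The difference between the ranges was fitted as the interaction of group and range, in which the pair stands against the other 4 Cre/+ TAM mice, and so gives no independent support either. It passed for 1 of 37 genes, Nuf2 (lower minus upper 1.46, standard error 0.26, limma adjusted p = 0.0418), and for 0.108% of all clusters. At an unadjusted p under 0.05, 19 genes had a larger difference in the lower range (17 mitotic genes, Mcm4 and Mcm6) and 0 a smaller one, against 3.10% of all clusters larger and 2.78% smaller. In Kntc1 the difference was 0.55 in the lower and 0.77 in the upper range, and the difference between the 2 was smaller than its standard error (-0.21, standard error 0.26, adjusted p = 0.977). With 1 mouse left out, the Nuf2 value stayed at 1.18 to 1.73. Among the fits that kept both mice of the pair, it passed only without P098_10_1504_539 (limma adjusted p = 0.0334). The adjusted p-values of the remaining fits with both mice were 0.051 to 0.119. Without any 1 of the Cre/+ OIL mice, which are not in the contrast, the value was 1.46 as with all mice and the adjusted p was 0.051 to 0.0617. Number range and mouse cannot be told apart here. The 3 wt TAM and 3 Cre/+ OIL mice of the lower range had mitotic means of 3.91 to 4.08 and 3.88 to 4.09. The lowest Cre/+ TAM mouse, P098_19_1504_583 of the upper range, had 4.10.

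**Figure D5:**
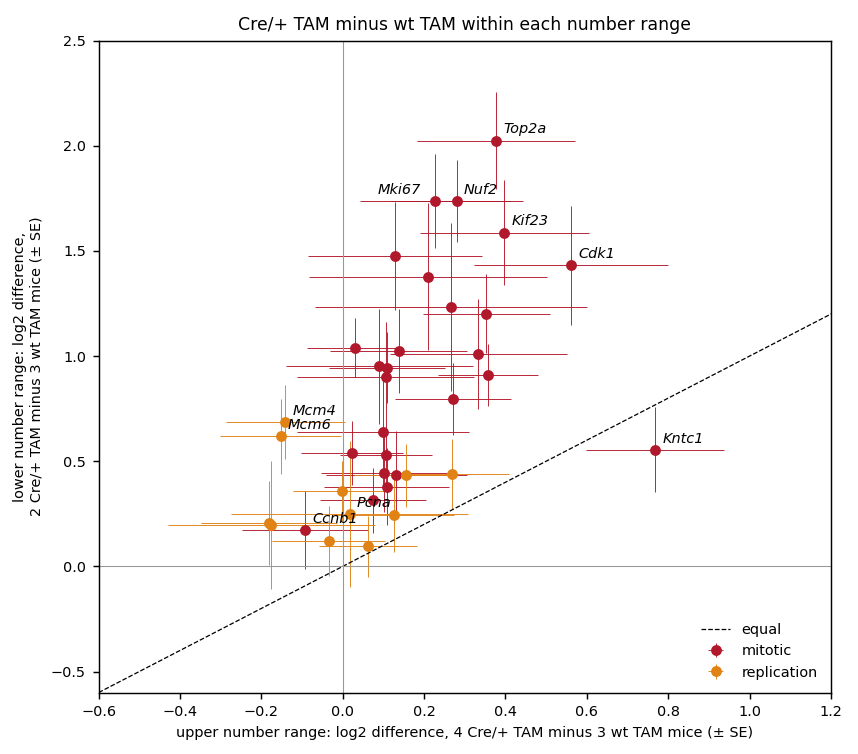
Log2 difference of Cre/+ TAM minus wt TAM within the upper (x axis) and the lower number range (y axis) for each of the 37 genes, with standard errors from limma; red, mitotic genes, orange, replication genes, dashed line, equal differences. Top2a, Nuf2, Mki67 and Kif23 lie far above the dashed line, Kntc1 (0.77, 0.55) lies below it, and the replication genes lie between -0.18 and 0.27 on the x axis.

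Against the second control, Cre/+ OIL mice, the median differences were close to those against wt TAM. Both comparisons use the same Cre/+ TAM arrays. The mitotic genes had a median difference of 0.46 with 26 of 26 positive, and the replication genes one of 0.13 with 8 of 11 positive, against a median of -0.00 and 48.9% positive over all clusters. Called were 0 of 37 genes (limma) and 0 of all clusters, and at an unadjusted p under 0.05, 11 mitotic and 0 replication genes were higher (2.93% of all clusters) and 0 were lower (2.91%). By the methods' unpaired test 0 were called and 2 were higher at an unadjusted p under 0.05 (2.68% of all clusters by that test). The groups did not overlap in 6 mitotic genes (Top2a, Bub1, Plk1, Nuf2, Ube2c and Kntc1), against 1.44% of all clusters. Mki67 (0.93, standard error 0.35, limma adjusted p = 0.78), Kntc1 (0.89, standard error 0.16, adjusted p = 0.152) and Nuf2 (0.83, standard error 0.27, adjusted p = 0.683) had the largest mitotic differences. Esco2 (0.26), Rrm2 (0.24) and Mcm7 (0.24) had the largest replication differences, and none of the 3 exceeded 2 standard errors. Without the pair, 0 of 37 were called (0.00924% of all clusters were), 26 of 37 differences were positive (50.5% of all clusters), and at an unadjusted p under 0.05, 8 mitotic genes were higher (2.88% of all clusters) and 0 genes lower (2.43%).

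The controls were then compared with each other, which differ in both the Cre allele and tamoxifen. In wt TAM against Cre/+ OIL the mitotic genes had a median difference of 0.03 with 15 of 26 positive, and the replication genes one of -0.03 with 5 of 11 positive (all clusters, 0.01 and 51.9%). Called were 0 of 37 (limma) and 0 of all clusters, and at an unadjusted p under 0.05 only Plk1 was higher (2.98% of all clusters) and 0 were lower (2.24%). The methods' unpaired test called 0 and also put 1 gene higher at an unadjusted p under 0.05 (2.23% of all clusters by that test). None of the 37 reached a 2-fold difference with an unadjusted p under 0.05 (0.0801% of all clusters did). Plk1, the kinase of centrosome and spindle, had signals of 4.13 to 4.58 in wt TAM and 3.78, 3.89 and 4.05 in Cre/+ OIL (difference 0.38, limma adjusted p = 0.933). It was also the 1 gene of the 37 whose groups did not overlap, where 1.21% of all clusters were higher and 0.742% lower without overlap. The largest mitotic differences in the other direction were those of Ndc80 (-0.49) and Cdk1 (-0.38). Among replication genes Rrm2 (0.26), Mcm7 (0.23) and Rrm1 (-0.19) were the largest, each within 2 standard errors.

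Further genes of the cell cycle were read from 3 lists of known members. Of 53 more mitotic genes, 48 had positive differences in Cre/+ TAM against wt TAM (44.8% of all clusters did), with a median of 0.15. At an unadjusted p under 0.05, 14 were higher and 0 lower, against 2.92% and 2.91% of all clusters. Without the pair, 30 of 53 were positive and the median was 0.06. The condensin subunit Smc4 (0.58, standard error 0.22) and Incenp, the anchor of Aurora B (0.56, standard error 0.16), had the largest. Of 55 more replication genes, 37 were positive, with a median of 0.08. At an unadjusted p under 0.05, 8 were higher and 0 lower, beside the same shares of all clusters. The licensing inhibitor Gmnn (0.49) and the primase Prim1 (0.48) had the largest differences. Without the pair, 28 of 55 were positive and the median was 0.00045. Of 38 regulators, 26 were positive, with a median of 0.11, and without the pair 27, with a median of 0.08. Over all clusters without the pair, 47.9% were positive. The limma test called 0 genes of the 3 lists. Among the regulators, Cdkn1a, the p21 inhibitor of Cdk complexes, had signals of 9.98 in P098_07_1504_529, 9.63 in P098_09_1504_538 and 7.42 to 8.09 in the other 4 Cre/+ TAM mice, against 6.16 to 7.89 in wt TAM and 6.33 to 8.45 in Cre/+ OIL. Its difference to wt TAM was 1.58 (standard error 0.47, adjusted p = 0.494). Cdkn1b, the p27 inhibitor, lay at 7.54 to 7.84 in Cre/+ TAM and 6.71 to 7.39 in wt TAM with no overlap, as did 0.317% of all clusters. Its difference was 0.60 (standard error 0.13, adjusted p = 0.182). Neither inhibitor passed the test.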

How the data were processed

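The genes, lists and tests were chosen with earlier results of these data known. Total RNA of sorted cells was amplified, biotin-labelled and hybridised, 1 array per mouse. The authors deposited log2 signals made with RMA, which subtracts background, gives all arrays 1 distribution and combines the probes of a cluster, so that differences of dim genes come out too small. No source used here names the RMA software or the genome build. The 37 clusters all overlap a RefSeq gene of their own symbol (GRCm38.p6). The authors' own fold changes and p-values were not used. Of 34390 clusters, 32471 have a gene symbol, and these were fitted with limma 3.58.1 in R 4.3.3 (lmFit and eBayes on all 15 arrays with a mean per group, two-sided, Benjamini-Hochberg over all of them). A second fit had a mean per group and number range. The fit was tested on simulated data. Arrays have no depth, and their number limits the precision. Limma p-values set a difference between groups against the spread between these mice, in an estimate that draws on all clusters. Figures were drawn with matplotlib 3.10.9 in Python 3.11.15.

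Genes were named if they were called, were among the 3 mitotic or 3 replication genes with the largest absolute difference in a contrast, were among the 2 of each kind with the largest SD, or had been picked for their roles (Mki67, Top2a, Ccnb1, Cdk1, Mcm2, Mcm5, Rrm2 and Pcna). Of each pathway list the 2 with the largest absolute difference to wt TAM were named. Other genes were named after their values were seen. Alternatives were median centring, quantile normalization, a second deposited table of log2 values (41345 rows, 34390 shared, largest difference 0.005), filters on signal and on clusters, another variance model, array weights, fits of single contrasts, pooled controls, other thresholds, the methods' unpaired test, number ranges and mice left out.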

Additional observations from a re-analysis of the deposited data

Results flagged for a closer look

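The 37 genes and the means of both sets were searched in Cre/+ TAM and wt TAM for a single stray mouse. Of 78 groups of values 10 had one, where chance gives about 1 in 20, or 3.9. In 5 genes it was the Cre/+ TAM mouse P098_09_1504_538 on the high side. Its log2 signals were 4.05 for Ccnb1 (nearest mouse of the group 3.52), 4.22 for Bub1 (3.23), 5.28 for Birc5, the survivin gene (4.32), 6.00 for Ube2c (4.08) and 5.22 for Ect2, an activator of the cleavage furrow (4.39). In 5 genes it was a wt TAM mouse on the low side. Bub1 was 2.40 in P098_10_1504_539 (nearest 2.65), Nusap1 2.75 and Mcm3 5.60 in P098_13_1504_576 (3.67 and 5.91), Kntc1 3.83 in P098_15_1504_578 (4.15) and Esco2 2.60 in P098_17_1504_580 (2.81).

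The difference of Nuf2 between Cre/+ TAM and wt TAM was larger in the lower than in the upper number range by 1.46, by a test of that difference itself (limma adjusted p = 0.0418). The Cre/+ TAM mice of the lower range are P098_07_1504_529 and P098_09_1504_538, already set apart by their high signals, so the test is no independent support.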

How the results depend on the processing

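Exceptions to the 0 calls among the 37 genes were, against wt TAM, 1 with both control groups together (Kntc1, beside 0.0924% of all clusters), 1 with number range as a block (Kntc1, 0.157%) and 5 in the lower range alone (0.268%), and against Cre/+ OIL 6 in the lower range alone (0.259%). With an unadjusted p under 0.05 as the threshold the calls were 16 against wt TAM, 11 against Cre/+ OIL and 1 between the controls. All of these were higher, as were 2.92%, 2.93% and 2.98% of all clusters. Shares of clusters higher follow in brackets, except where 1 mouse was left out. That count against wt TAM was 5 with clusters above the median signal only (fewer genes tested, 4.38%). It was 7 without P098_07_1504_529 and P098_09_1504_538 (2.23%), 25 in the lower (3.57%) and 6 in the upper range alone (2.05%). With 1 mouse left out it was 14 to 18. Against Cre/+ OIL it was 3 with clusters above the median (3.46%), 2 by the methods' unpaired test (2.68%), 23 with the range block (3.4%) and 27 in the lower range alone (3.57%). With 1 mouse left out it was 7 to 15, lowest without P098_05_1504_506_neg. Without the 3 neg arrays the Cre/+ OIL group is 1 mouse, P098_08_1504_530, so that no count is given. Between the controls the count was 0 with clusters above the median (2.48%), 2 with array weights (2.78%), 6 with the range block (2.36%) and 0 to 2 with 1 mouse left out. With all mice and clusters the range interaction called 1 gene and 0.108% of all clusters. The range interaction called 2 genes with clusters above the median, 3 with 1 cluster per gene and 0 without the neg arrays. With 1 mouse outside the pair left out it called 0 to 2. The share of all clusters is not given for these settings, so these counts cannot be set against it. The median mitotic difference to wt TAM was 0.95 in the lower and 0.13 in the upper range alone, and 0.32 to 0.53 with 1 mouse left out. To Cre/+ OIL it was 0.17 without the pair and 0.95 in the lower range alone, where the replication median was 0.35. The replication median to wt TAM was -0.063 without the pair. The range block and lower range settings for Cre/+ TAM against Cre/+ OIL were chosen after seeing the data. In the lower range the Cre/+ TAM mice are the pair and no others, so values of that range alone restate the pair's signals. The cause of the shifts between settings was not tested.

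Some genes near 0 changed sign. Against wt TAM, Rrm2 was 0.010 with median centring, 0.034 with quantile normalization, 0.072 with both controls, 0.20 in the lower range and -0.10 to 0.063 with 1 mouse left out. Pcna was -0.021 with quantile normalization, -0.044 without the neg arrays, -0.075 without the pair and -0.044 to 0.16 with 1 mouse left out. Ccnb1 was 0.0015 with quantile normalization, 0.054 with both controls, 0.017 with the range block, 0.17 in the lower range and -0.15 to 0.030 with 1 mouse left out. Mcm4 was -0.17 without the pair, -0.14 in the upper range and -0.023 to 0.25 with 1 mouse left out. Mcm2 was -0.032 without the pair and -0.0024 in the upper range. Rrm2 against Cre/+ OIL was -0.0702 without the neg arrays, where the Cre/+ OIL group is 1 mouse. With 1 mouse left out it was -0.13 to 0.46, and between the controls -0.11 to 0.47. In limma fits of the lower range alone, Top2a (adjusted p = 0.0173), Nuf2 (adjusted p = 0.0184) and Mki67 (adjusted p = 0.0367) passed against wt TAM. No paired analysis was possible because the labels give no shared replicate numbers. The number of arrays and the dim signals of many of these genes limit the precision.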
